A study of Mus musculus with 8 samples.

Results

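The genes of cholesterol synthesis and of its regulator SREBP2 were followed through the livers of wild-type and MLL4 het-labelled mice on chow or a high fat diet (HFD). The set held 30 genes chosen by symbol, and all 30 had a row among the 22946 rows of the read count table. All were abundant enough to be tested. Tm7sf2 stood in a row joined with 1110014N23Rik, whose counts cannot be divided, and Sc4mol is the older symbol of Msmo1. RNA-seq counts came from 8 liver libraries, 2 in each of 4 groups: wild-type on chow (libraries 1 and 2), wild-type on HFD (5 and 6), het-labelled on chow (3 and 4) and het-labelled on HFD (7 and 8). All mice were C57 Black, and diet started at 8 weeks of age and lasted 8 weeks. The allele behind the label MLL4 het is not given in the sources used here. MLL4, encoded by Kmt2d, is a histone methyltransferase of enhancers, and Kmt2d RNA, listed as Mll2, stood at 61.2 and 69.6 CPM on chow against 63.3 and 64.6 on HFD in wild-type livers, and at 59.9 and 72.02 CPM on chow against 62.7 and 75.3 on HFD in het-labelled livers. The label is thus not reflected in the level of this RNA, and these livers are called het-labelled throughout.

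Libraries held between 14142884 and 18928676 counts, and levels are given as CPM, counts per 1e+06 counts of a library after TMM scaling. The liver markers Alb, Ttr, Apoa1, Apob, Serpina1a, Tat and Cps1 were present in every library, with a summed level of 84426 to 89563 CPM in wild-type chow and 71684 to 74699.5 in het-labelled HFD libraries. The labels do not state whether the paired libraries are different animals, and p-values then reflect a spread that may be technical. Log2 changes are given ± SE from 1 edgeR quasi-likelihood model of all 8 libraries. A gene was called at a Benjamini-Hochberg adjusted p under 0.05 over 12593 tested rows. In bulk tissue, fewer cells of a type and less RNA per cell cannot be told apart.

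Cholesterol is built from acetyl-CoA. The early enzymes make mevalonate and then the isoprenoid units that are joined to squalene, which is oxidised and closed into lanosterol, the first sterol, and trimmed to cholesterol by the late enzymes of the endoplasmic reticulum. The transcription factor SREBP2 (Srebf2) drives these genes. Its precursor is carried to the Golgi by SCAP when membrane sterol is low and is held back by INSIG1 or INSIG2 when sterol is abundant, and in liver the pathway supplies lipoproteins and bile acids. SREBP2 binds sterol regulatory elements and acts on promoters together with factors such as NF-Y, whose site is the CCAAT box.

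Promoter windows are shown because many members hold a sequence feature that the choice of members did not use. RefSeq windows of GRCm38.p6, a later build than the mm9 of the counts, were found for 25 of the 30 members. Fdps, Fdft1, Sqle, Stard4 and Npc1 had none in the table used. Of the 32 windows of these members, 27 were followed by bases that begin a transcript of the gene. The starts of the others were not matched in this way. The 250 bases before each start were searched on both strands for the CCAAT box (CCAAT) and for the core of the sterol regulatory element (TCACNCCA). The capitals below mark these matches, and in Hmgcs1 the longer form TCACNCCAC. Of the 7 windows shown 5 are of genes that were lower on HFD with a wide range of changes (Srebf2, Hmgcs1, Mvk, Idi1, Sc4mol), 1 is of the mildly lower Acat2, which held no match, and 1 is of Nus1, which was not called.
Srebf2 (chr15:82147019-82147268, plus strand): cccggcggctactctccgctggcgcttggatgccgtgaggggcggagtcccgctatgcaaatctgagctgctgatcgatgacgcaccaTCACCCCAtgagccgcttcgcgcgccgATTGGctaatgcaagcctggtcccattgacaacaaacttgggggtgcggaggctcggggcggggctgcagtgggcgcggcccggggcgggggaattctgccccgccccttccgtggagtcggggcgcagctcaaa
Hmgcs1 (chr13:119690101-119690350, plus strand): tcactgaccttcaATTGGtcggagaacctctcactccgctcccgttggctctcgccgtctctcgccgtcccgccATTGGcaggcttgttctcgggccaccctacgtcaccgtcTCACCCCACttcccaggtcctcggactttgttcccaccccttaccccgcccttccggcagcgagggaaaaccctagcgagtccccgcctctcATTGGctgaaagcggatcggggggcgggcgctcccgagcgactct
Mvk (chr5:114444019-114444268, plus strand): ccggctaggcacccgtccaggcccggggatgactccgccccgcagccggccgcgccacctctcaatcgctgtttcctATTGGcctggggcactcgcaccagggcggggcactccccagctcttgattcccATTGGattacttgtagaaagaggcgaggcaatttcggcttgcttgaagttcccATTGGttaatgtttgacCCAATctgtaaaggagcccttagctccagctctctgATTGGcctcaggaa
Idi1 (chr13:8885356-8885605, plus strand): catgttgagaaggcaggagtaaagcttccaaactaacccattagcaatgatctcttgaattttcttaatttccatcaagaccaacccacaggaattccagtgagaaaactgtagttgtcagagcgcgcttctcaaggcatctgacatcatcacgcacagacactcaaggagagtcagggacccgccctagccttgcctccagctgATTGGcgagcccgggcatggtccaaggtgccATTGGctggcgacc
Sc4mol (chr8:64733579-64733828, minus strand): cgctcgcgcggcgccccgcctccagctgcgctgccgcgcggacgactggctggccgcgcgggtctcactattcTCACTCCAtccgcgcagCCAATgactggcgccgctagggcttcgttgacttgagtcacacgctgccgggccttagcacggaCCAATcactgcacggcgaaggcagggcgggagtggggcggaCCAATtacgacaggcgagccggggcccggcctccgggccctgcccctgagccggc
Acat2 (chr17:12960726-12960975, minus strand): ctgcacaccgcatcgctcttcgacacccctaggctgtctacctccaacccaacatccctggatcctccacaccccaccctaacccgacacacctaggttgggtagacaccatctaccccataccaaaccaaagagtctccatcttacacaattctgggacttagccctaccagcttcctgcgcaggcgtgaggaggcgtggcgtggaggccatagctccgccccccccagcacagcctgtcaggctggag
Nus1 (chr10:52417297-52417546, plus strand): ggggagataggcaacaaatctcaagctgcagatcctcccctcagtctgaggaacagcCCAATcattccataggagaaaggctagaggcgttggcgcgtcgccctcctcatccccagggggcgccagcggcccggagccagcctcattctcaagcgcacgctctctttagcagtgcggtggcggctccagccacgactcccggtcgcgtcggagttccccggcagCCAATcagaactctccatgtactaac

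A CCAAT box lay in a window of 22 of the 25 members (88%), against 37.5% of all 27025 genes in the RefSeq table, and Scap, Acat2 and Aacs had none. Of the 17 members with a window that were lower on HFD over both genotypes, 16 held a CCAAT box and 10 held 2 or more, against 10.1% of all 32851 windows with 2 or more. The member counts are by gene, using its window with the most matches, whereas the 10.1% is by window. The CCAAT box was not limited to the lower members: of the 7 members with a window that were not called, 5 held a CCAAT box, among them Ggps1, Dhdds and Nus1. Mvk had the most, with 5. The element core TCACNCCA occurred in 3 of the 25, Srebf2 at -162, Hmgcs1 at -137 and Sc4mol at -177 from the start. In all 3 a CCAAT box followed it, the nearest at -135 in Srebf2, -45 in Hmgcs1 and -160 in Sc4mol. Over all genes 4.2% held the core. The longer form TCACNCCAC, which overlaps the core, was found in Hmgcs1 only. A match describes letters and not a bound site, and the absence of one in 250 bases says only that these letters are not there.

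**Figure D1:**
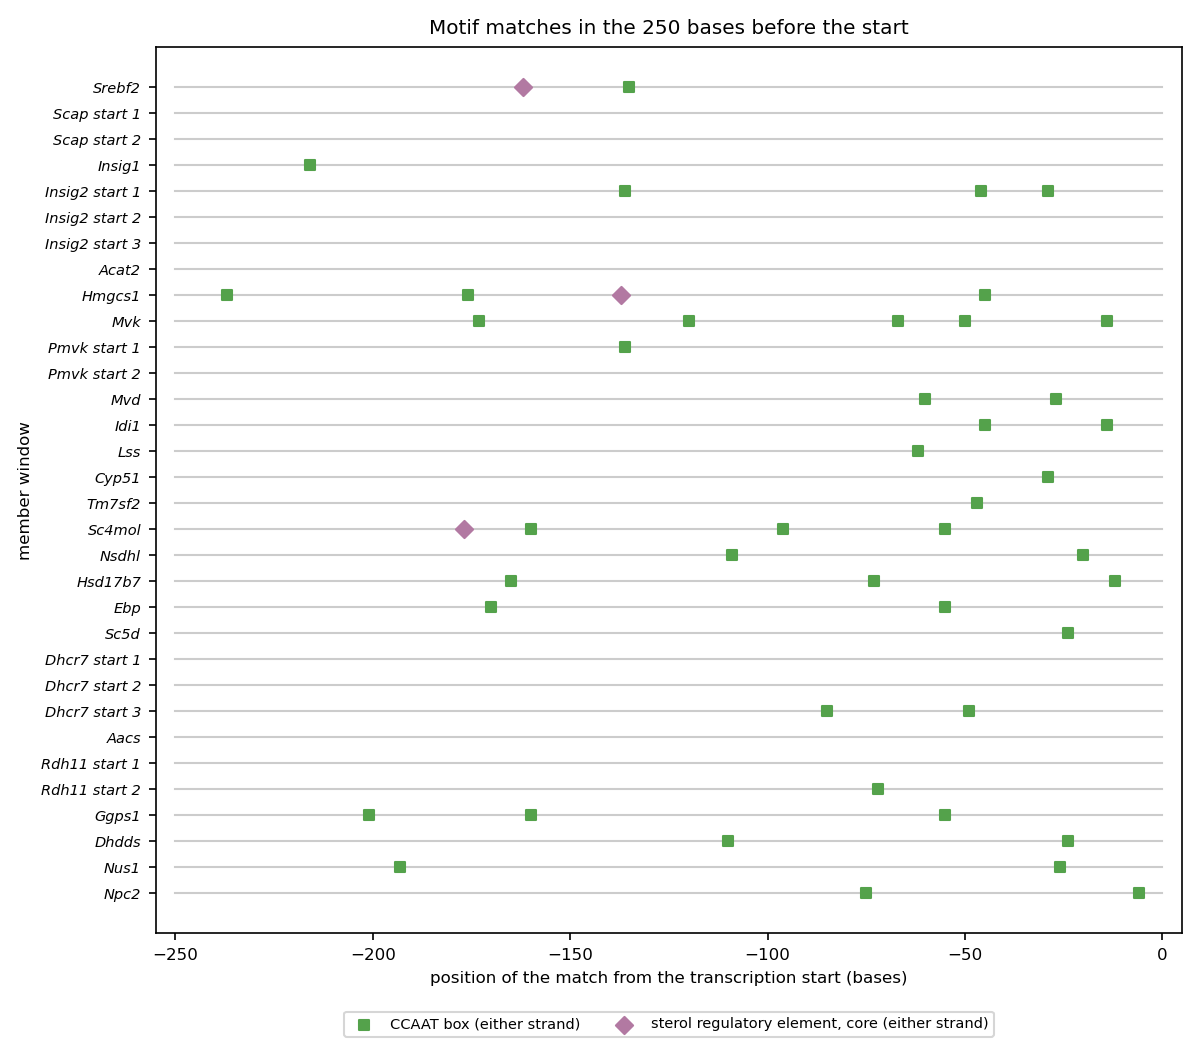
Matches to the CCAAT box (squares) and to the core of the sterol regulatory element (diamonds) in the 250 bases before each RefSeq start of 25 members, by the position of the first matched base from the start. Most windows hold a CCAAT box, and 3 hold the sterol element core.

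The diet comparison asks which genes HFD altered. Over both genotypes, 20 of the 30 members were lower on HFD and 1, Insig2, was higher, where 4.84% of all tested rows were called lower and 5.56% higher (10.4% in either direction). The 7 enzymes up to farnesyl diphosphate, the 3 enzymes from there to lanosterol and 7 of the 8 late enzymes were called lower, Sc5d being the exception. The median log2 change of the members was -0.81, beside 0.01 over all tested rows. In wild-type livers alone 16 members were called lower and 1 higher (background 2.22% lower, 2.37% higher, 4.59% in all), and in het-labelled livers alone 12 were lower and 0 higher (background 1.48%, 1.53% and 3.02%). The wild-type count was 7, 3 and 4 without libraries 1, 2 and 6. The het-labelled count was 7, 6, 4 and 4 without libraries 1, 2, 4 and 7. Over both genotypes 17 of the 21 calls held without any 1 of the 8 libraries. The other 4, Acat2, Mvd, Ebp and Npc2, are described with the libraries that ended them.

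The summed level of the 18 synthesis enzymes showed the size of the shift. It was 2957 to 3534 CPM in wild-type chow, 1252 to 1696 in wild-type HFD, 2268 to 2653 in het-labelled chow and 1059 to 1419 in het-labelled HFD libraries. The chow and HFD libraries did not overlap. All 4 HFD libraries lay below all 4 chow libraries for 18 of the 30 members, where 5.88% of tested rows did so, and above them for 0 (7.19%). Within wild-type the HFD pair lay below the chow pair for 22 members (25.2% of rows) and above it for 4 (30.6%), and within het-labelled livers for 20 (22.4%) and 2 (22.3%). Markers of other cells moved with the diet as well. The blood markers summed to 258 to 320.1 CPM in wild-type chow and 653 to 828 in wild-type HFD libraries, with the Hba-a1 and Hbb-b1 rows called higher (2 of 3 tested), and to 239.6 to 253 and 349.9 to 371 in het-labelled ones (0 of 3). Kupffer cell markers summed to 121 to 131 and 124 to 130.2 CPM in wild-type, and to 301 to 375 and 133 to 206 in het-labelled chow and HFD libraries, with 4 of 6 called lower in the latter. Of the hepatocyte markers 1 of 7, Cps1, was lower in wild-type livers on HFD, and their sum there was 74811 to 75175 CPM. Of the adipocyte markers only Cfd could be tested, and it was higher in wild-type livers, while Adipoq, Lep, Retn and Plin1 were at most 0.213 CPM in every library. Over both genotypes 3 of 6 Kupffer markers and 1 of 7 hepatocyte markers, Cps1, were called lower, and 2 of 3 blood markers and Cfd higher. No endothelial, stellate, cholangiocyte, T or B cell marker tested was called in any comparison. The part of these cells in the changes of the sterol genes was not tested.

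**Figure D2:**
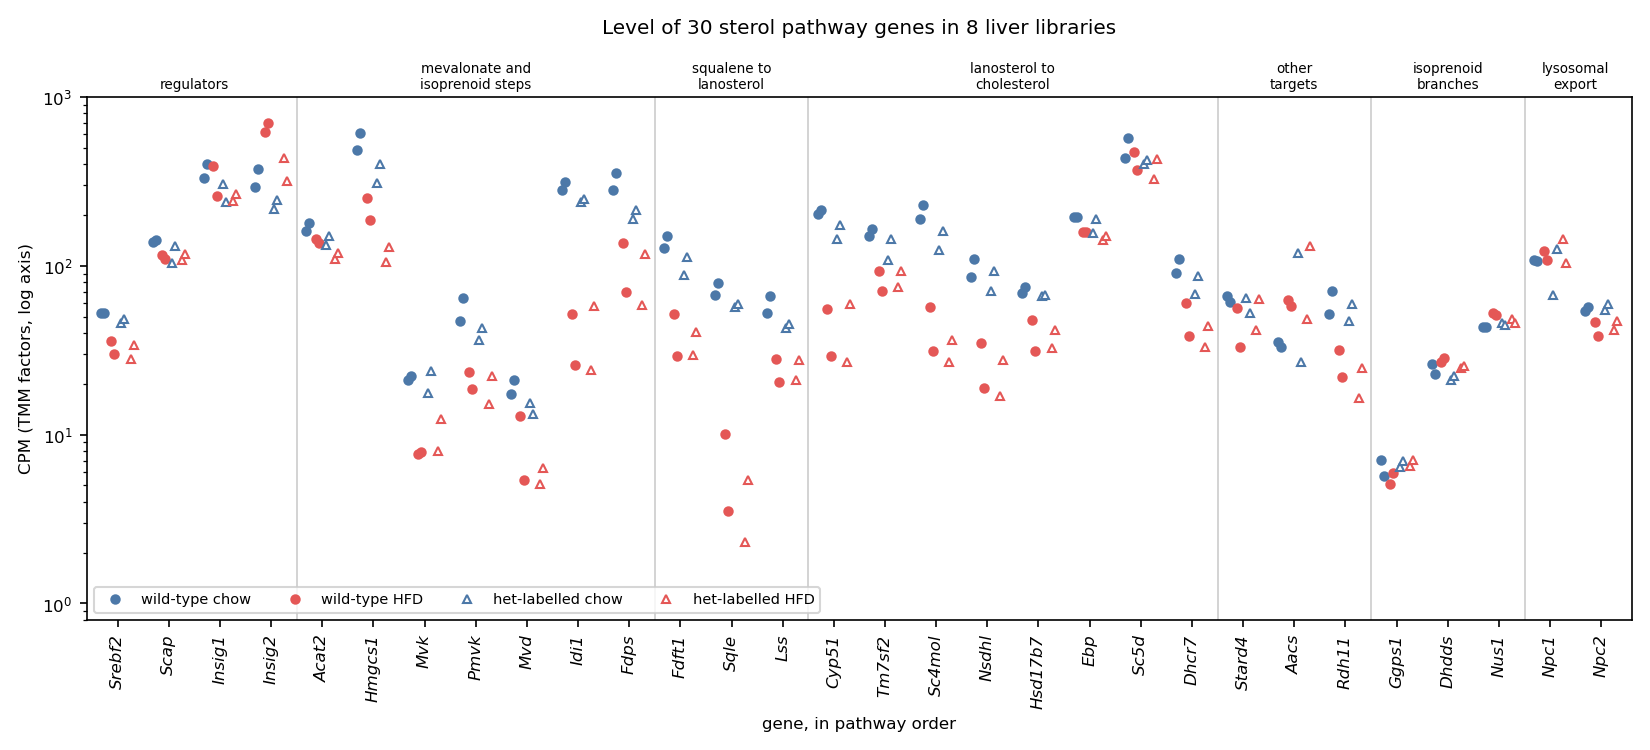
CPM of the 30 genes on a log axis, in pathway order, with 1 point per library (circles wild-type, triangles het-labelled, blue chow, red HFD). For 18 genes all HFD points lie below all chow points.

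Among the 4 regulators Srebf2 fell, Insig2 rose, and Insig1 and Scap were not called. Srebf2 stood at 52.4 and 52.3 CPM on chow against 36.05 and 29.9 on HFD in wild-type livers, and at 45.7 and 48.6 CPM on chow against 28.1 and 34.05 on HFD in het-labelled livers. All HFD libraries were below all chow libraries. Its log2 change was -0.67 ± 0.12 in wild-type (edgeR adjusted p = 0.0189), -0.60 ± 0.12 in het-labelled (adjusted p = 0.0381) and -0.64 ± 0.09 over both (adjusted p = 0.002899). Insig2, a sterol-sensing anchor of SCAP, moved the other way. It stood at 295 and 376 CPM on chow against 619 and 706 on HFD in wild-type livers, and at 216 and 246 CPM on chow against 436 and 316 on HFD in het-labelled livers. HFD was above chow within each genotype, while the het-labelled HFD library 8 lay between the wild-type chow libraries. The change was 0.98 ± 0.17 in wild-type (edgeR adjusted p = 0.01598), 0.70 ± 0.17 in het-labelled livers, where it was not called (adjusted p = 0.0665), and 0.84 ± 0.12 over both (adjusted p = 0.00368). The RefSeq table lists 3 starts for Insig2, and counts over the gene do not tell them apart.

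Insig1, the close relative of Insig2 and itself a target of SREBP, stood at 329 and 401 CPM on chow against 392 and 258 on HFD in wild-type livers, and at 306 and 239.6 CPM on chow against 242 and 268 on HFD in het-labelled livers. The groups overlapped in both genotypes, and the change over both was -0.13 ± 0.14 (95% interval -0.45 to 0.18, edgeR adjusted p = 0.611). Scap, the escort of SREBP, stood at 138 and 142 CPM on chow against 117 and 109.95 on HFD in wild-type livers, and at 105 and 132 CPM on chow against 108 and 118 on HFD in het-labelled livers. Wild-type HFD lay below wild-type chow, het-labelled groups overlapped, and Scap was not called (adjusted p = 0.196 over both). Without library 3 or without libraries 3 and 8 together, a choice made after the data were seen, Scap was called lower over both (edgeR adjusted p = 0.0328 and 0.02098). The wild-type call of Srebf2 ended without library 1, 2 or 6 and its het-labelled call without 1, 2, 3, 4 or 7 (adjusted p up to 0.137 and 0.161). The wild-type call of Insig2 ended without 1, 2, 5 or 6 (adjusted p up to 0.158), and without library 8 Insig2 was called in het-labelled livers. Over both genotypes both genes stayed called without any 1 library.

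The early steps fell unevenly. Acat2, a cytosolic thiolase that joins acetyl-CoA units, was the least changed, at 161 and 178 CPM on chow against 144 and 137 on HFD in wild-type livers, and at 133 and 149 CPM on chow against 110.1 and 119 on HFD in het-labelled livers. HFD lay below chow in each genotype, and the change over both was -0.29 ± 0.07 (edgeR adjusted p = 0.0321), a call that ended without library 1, 2, 4, 5, 6 or 7 (adjusted p up to 0.127). Hmgcs1, which makes HMG-CoA in the cytosol, stood at 483 and 615 CPM on chow against 253 and 186 on HFD in wild-type livers, and at 311 and 404 CPM on chow against 106 and 130.1 on HFD in het-labelled livers. Every HFD library was below every chow library, and the het-labelled ones were the lowest. The change was -1.32 ± 0.19 in wild-type (edgeR adjusted p = 0.00845), -1.60 ± 0.20 in het-labelled (adjusted p = 0.00758) and -1.46 ± 0.14 over both (adjusted p = 0.000607).

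Mvk, mevalonate kinase, stood at 20.97 and 22.4 CPM on chow against 7.73 and 7.92 on HFD in wild-type livers, and at 17.6 and 23.9 CPM on chow against 8.04 and 12.4 on HFD in het-labelled livers. HFD was below chow in every library. Pmvk, the next kinase, stood at 47.4 and 64.6 CPM on chow against 23.5 and 18.6 on HFD in wild-type livers, and at 36.3 and 42.6 CPM on chow against 15.2 and 22.4 on HFD in het-labelled livers. It showed the same separation of the diets, and its change over both genotypes was -1.25 ± 0.15, beside -1.25 ± 0.15 for Mvk (edgeR adjusted p = 0.00169 and 0.00161). Mvd, the decarboxylase that follows, stood at 17.5 and 21.1 CPM on chow against 12.98 and 5.36 on HFD in wild-type livers, and at 15.4 and 13.3 CPM on chow against 5.09 and 6.33 on HFD in het-labelled livers. The diets did not overlap, but library 5 was near the chow level, and Mvd was called by edgeR over both genotypes (-1.21 ± 0.24, adjusted p = 0.0145) and not within either. The call over both ended without library 2 (adjusted p = 0.05599). Within wild-type and het-labelled livers Mvd was called lower by DESeq2 (adjusted p = 0.00942 and 0.001304), by edgeR with no filter (0.0286 and 0.0175) and without library 5 (0.00957 and 0.0109).

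Idi1, the isomerase that makes the unit for chain growth, had the second deepest fall of the list. It stood at 281 and 315 CPM on chow against 51.5 and 25.7 on HFD in wild-type livers, and at 239 and 247 CPM on chow against 24.02 and 57.8 on HFD in het-labelled livers. Libraries 6 and 7 were the lowest and 5 and 8 higher, all far below chow. Its level was 7.71-fold lower on HFD in wild-type and 5.98-fold lower in het-labelled livers (log2 -2.95 ± 0.40 and -2.58 ± 0.40, edgeR adjusted p = 0.00678 and 0.0169). Fdps, farnesyl diphosphate synthase at the branch to sterols, ubiquinone and prenyl groups, stood at 279.5 and 353 CPM on chow against 137 and 69.9 on HFD in wild-type livers, and at 189 and 215 CPM on chow against 58.2 and 117 on HFD in het-labelled livers. As for Idi1, libraries 6 and 7 were below 5 and 8, and the change was -1.41 ± 0.25 over both genotypes (edgeR adjusted p = 0.00968), called in wild-type (adjusted p = 0.0391) and not in het-labelled livers (adjusted p = 0.114). There Fdps was called lower with no filter (edgeR adjusted p = 0.0287) and without library 8 (0.0425). Without library 1, 2 or 6 in turn, the wild-type calls of Mvk and Fdps ended (adjusted p up to 0.0618 and 0.184), and Mvk also without 5. Those of Hmgcs1 and Pmvk ended without 2 or 6. In het-labelled livers Mvk and Pmvk lost their calls without library 1, 2, 4 or 7, Mvk also without 5 or 6 and Pmvk without 3. Over both genotypes Hmgcs1, Mvk, Pmvk, Idi1 and Fdps kept theirs.

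Steps from farnesyl diphosphate to lanosterol were called lower in each genotype. Fdft1, squalene synthase, stood at 127 and 151 CPM on chow against 52.1 and 29.3 on HFD in wild-type livers, and at 88.1 and 112 CPM on chow against 29.8 and 40.5 on HFD in het-labelled livers. No HFD library reached the chow range. The change was -1.77 ± 0.26 in wild-type and -1.51 ± 0.26 in het-labelled livers (edgeR adjusted p = 0.00833 and 0.0243). In the RefSeq table Fdft1 overlaps Ctsb, and reads in the shared part cannot be assigned. Sqle, the epoxidase that is a rate-limiting step after squalene, fell the most of the 30 genes. It stood at 67.4 and 79.4 CPM on chow against 10.2 and 3.55 on HFD in wild-type livers, and at 56.9 and 59.8 CPM on chow against 2.31 and 5.402 on HFD in het-labelled livers. Chow and HFD were far apart, and the HFD levels rested on 176 and 65 counts in wild-type and 43 and 76 in het-labelled livers. The level was 10.8-fold lower in wild-type and 15.6-fold lower in het-labelled livers (log2 -3.43 ± 0.40 and -3.97 ± 0.44, edgeR adjusted p = 0.00361 and 0.00546). Lss, which closes the rings to lanosterol, stood at 52.9 and 65.9 CPM on chow against 28.2 and 20.5 on HFD in wild-type livers, and at 42.6 and 45.2 CPM on chow against 20.97 and 27.8 on HFD in het-labelled livers. The diets were apart in both genotypes, with a change of -1.29 ± 0.18 in wild-type and -0.86 ± 0.18 in het-labelled livers (edgeR adjusted p = 0.00775 and 0.04601). The calls of Sqle held without any 1 library in each genotype, those of Fdft1 ended without library 2 in wild-type and 2, 4 or 7 in het-labelled livers (adjusted p up to 0.0618 and 0.0921), and those of Lss without 2 or 6 and without 1, 2, 3, 4 or 7 (up to 0.0618 and 0.189).

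**Figure D3:**
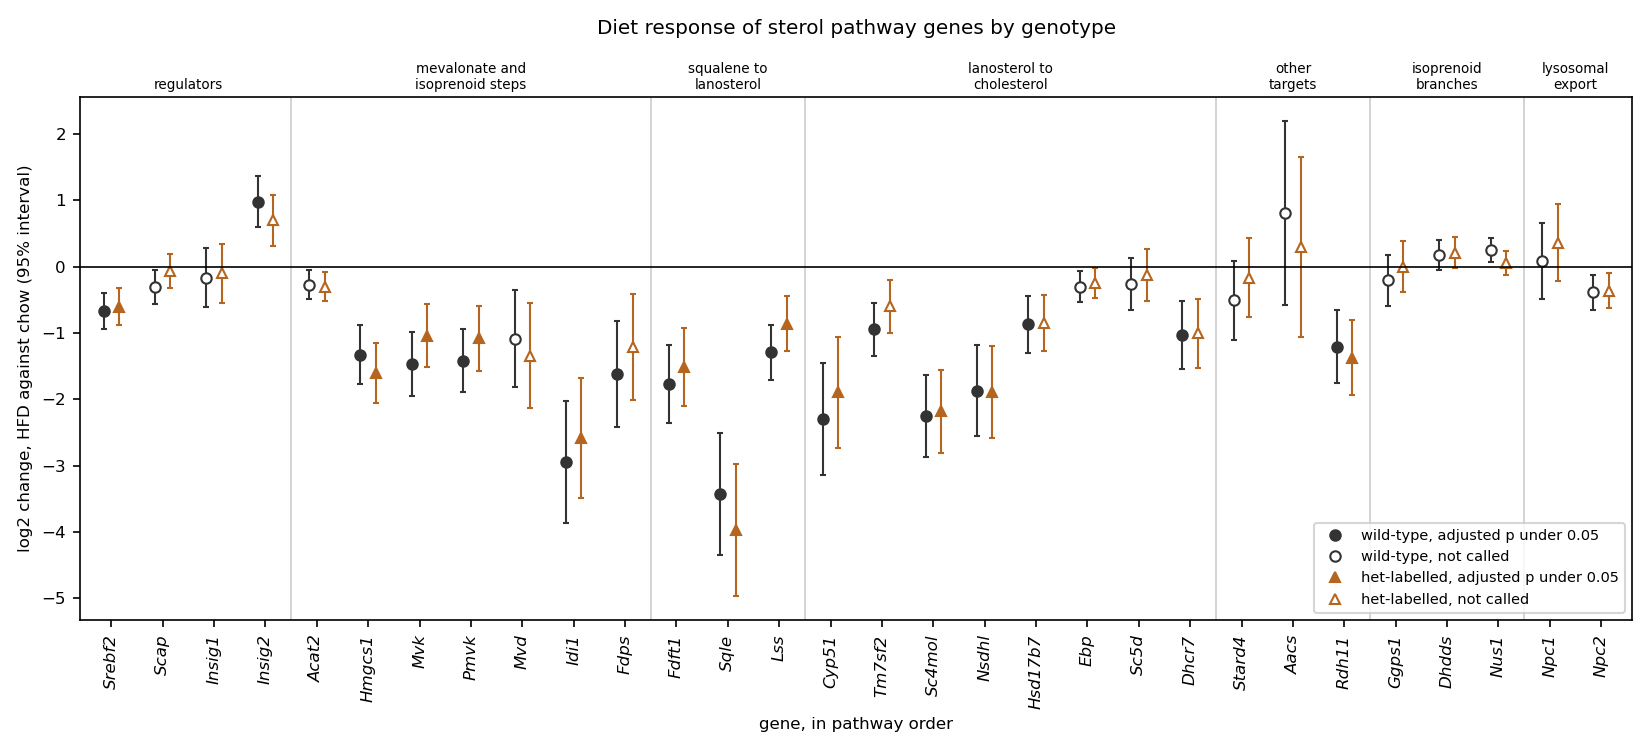
Log2 change from chow to HFD with its 95% interval in wild-type (circles) and het-labelled livers (triangles), by pathway step, filled where the adjusted p was under 0.05. The synthesis enzymes lie below 0 in both genotypes, deepest at Idi1 and Sqle, and Insig2 lies above 0.

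Late enzymes differed in how far they fell. Cyp51, the lanosterol demethylase, stood at 203 and 215 CPM on chow against 55.7 and 29.3 on HFD in wild-type livers, and at 145 and 175 CPM on chow against 26.8 and 59.8 on HFD in het-labelled livers. Sc4mol, the methyl oxidase of a later step, stood at 189 and 230.04 CPM on chow against 56.99 and 31.1 on HFD in wild-type livers, and at 124 and 162 CPM on chow against 26.97 and 36.3 on HFD in het-labelled livers. Nsdhl, its partner dehydrogenase, stood at 86.02 and 109 CPM on chow against 34.7 and 18.9 on HFD in wild-type livers, and at 70.7 and 92.97 CPM on chow against 17.00 and 27.5 on HFD in het-labelled livers. These 3 demethylation genes had no overlap between diets and fell by 2.09, 2.21 and 1.88 on the log2 scale over both genotypes (SE 0.26, 0.19 and 0.22, edgeR adjusted p = 0.00193, 0.000477 and 0.00141). Each was also called within each genotype, and Sc4mol alone of the 3 kept both calls without any 1 library. The wild-type calls of Cyp51 and Nsdhl ended without library 1, 2 or 6 (adjusted p up to 0.0763 and 0.0823), and their het-labelled calls without 4 or 7, for Cyp51 also without 1, 2 or 3 (up to 0.0861 and 0.0703).

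Hsd17b7, a keto-reductase, Dhcr7, the reductase that ends the route, and the merged row of Tm7sf2, a sterol reductase, fell less. In the RefSeq table Tm7sf2 overlaps Vps51, and the change of the merged row may not be that of Tm7sf2 alone. The merged Tm7sf2 row ranged from 109 to 166 CPM over chow and from 71.04 to 93.3 over HFD libraries. Hsd17b7 ranged from 66.02 to 75.04 and from 31.1 to 47.9 CPM. Dhcr7 ranged from 67.6 to 110.3 and from 32.9 to 60.3 CPM. The diets did not overlap for any of these 3 genes. Over both genotypes their log2 changes were -0.77 ± 0.12, -0.86 ± 0.13 and -1.02 ± 0.16 (edgeR adjusted p = 0.00646, 0.00525 and 0.00595), and these calls held without any 1 library. All 3 were called in wild-type livers (adjusted p = 0.0215, 0.0359 and 0.0393), which ended without library 1, 2 or 6 (up to 0.1400, 0.1795 and 0.202). None was called in het-labelled livers by edgeR with the filter (adjusted p = 0.119, 0.0505 and 0.0559), whereas DESeq2 called all 3 there (adjusted p = 0.0266, 0.000813 and 0.000234). With no filter edgeR also called Hsd17b7 and Dhcr7 there (adjusted p = 0.00969 and 0.00982), but not the Tm7sf2 row.

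Ebp and Sc5d, the isomerase and desaturase between these steps, were the least changed of the late enzymes. Ebp stood at 195 and 194 CPM on chow against 158 and 158 on HFD in wild-type livers, and at 156 and 189 CPM on chow against 142 and 149.8 on HFD in het-labelled livers. HFD was below chow within each genotype by a small margin, -0.27 ± 0.07 over both (edgeR adjusted p = 0.0445), a call that held only without library 3 (adjusted p up to 0.136). Sc5d stood at 438 and 570.1 CPM on chow against 469 and 370.2 on HFD in wild-type livers, and at 401 and 423 CPM on chow against 325 and 428 on HFD in het-labelled livers. Its groups overlapped, and the change over both was -0.20 ± 0.12 (95% interval -0.47 to 0.08, adjusted p = 0.3597).

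Genes at the edge of the pathway were mixed. Rdh11, a retinal reductase known as a target of SREBP, stood at 52.1 and 71.2 CPM on chow against 31.7 and 21.9 on HFD in wild-type livers, and at 47.2 and 59.03 CPM on chow against 16.4 and 24.9 on HFD in het-labelled livers. It followed the synthesis enzymes, with no overlap of the diets and -1.29 ± 0.17 over both genotypes (edgeR adjusted p = 0.00285), a call that held without any 1 library. Within genotypes it was called in wild-type (adjusted p = 0.0288, up to 0.172 without library 1, 2, 5 or 6) and in het-labelled livers (adjusted p = 0.0269, up to 0.101 without 4 or 7). Stard4, a cytosolic sterol carrier, stood at 66.2 and 60.8 CPM on chow against 56.5 and 32.8 on HFD in wild-type livers, and at 64.8 and 52.8 CPM on chow against 41.4 and 63.97 on HFD in het-labelled livers. Library 6 was low and library 8 was at the chow level, and Stard4 was not called (edgeR adjusted p = 0.301 over both).

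Aacs, which activates acetoacetate for sterol and fatty acid synthesis, was spread within the het-labelled groups. It stood at 35.3 and 33.1 CPM on chow against 62.8 and 57.7 on HFD in wild-type livers, and at 119 and 27.00 CPM on chow against 48.6 and 132 on HFD in het-labelled livers. Libraries 3 and 8 were high and their partners 4 and 7 were within or near the wild-type range. Aacs was not called over both genotypes (0.56 ± 0.43, edgeR adjusted p = 0.469). Without library 3 it was called higher on HFD (log2 1.27, edgeR adjusted p = 0.0393). Without libraries 3 and 8 together it was also called higher (log2 0.83, edgeR adjusted p = 0.000401), a choice made after its values were seen.

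The branches that leave the sterol route before squalene were not called. Ggps1, which makes the prenyl group of small GTPases, ranged from 5.08 to 7.05 CPM over all 8 libraries. Dhdds and Nus1, the subunits of the dehydrodolichyl diphosphate synthase, ranged from 21.2 to 28.5 and from 43.5 to 52.8 CPM. None of the 3 was called in any comparison, and their changes over both genotypes were -0.10 ± 0.12, 0.20 ± 0.07 and 0.16 ± 0.06 (edgeR adjusted p = 0.662, 0.124 and 0.128). The 95% intervals, -0.37 to 0.17, 0.04 to 0.36 and 0.03 to 0.28 on the log2 scale, all lie above the change of the Tm7sf2 row. The Ggps1 interval includes the changes of the synthesis enzymes Acat2, Ebp and Sc5d, and does not set Ggps1 apart from these.

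Npc1 and Npc2 pass cholesterol out of the lysosome. Npc1 stood at 109 and 107 CPM on chow against 122 and 108 on HFD in wild-type livers, and at 67.1 and 126 CPM on chow against 144 and 105 on HFD in het-labelled livers. Library 3 was the lowest and library 7 the highest, and Npc1 was not called (0.23 ± 0.18, edgeR adjusted p = 0.484), except that without library 4 it was called higher over both (log2 0.48, adjusted p = 0.03996). Npc2 stood at 53.97 and 57.1 CPM on chow against 46.8 and 38.4 on HFD in wild-type livers, and at 54.7 and 59.6 CPM on chow against 41.9 and 47.1 on HFD in het-labelled livers. HFD was below chow in all libraries, and Npc2 was called lower over both (-0.37 ± 0.08, edgeR adjusted p = 0.0231), a call that ended without library 1, 2, 6 or 7 (adjusted p up to 0.0902). In the RefSeq table Npc1 overlaps Rmc1.

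The synthesis enzymes also varied together between libraries of the same group. Of the 18, 17 were lower in library 1 than in library 2 of wild-type chow, and the median level in library 1 was 83.5% of that in library 2. On wild-type HFD 16 were lower in library 6 than in library 5, with library 5 at a median of 156% of library 6. In het-labelled livers 17 were lower in library 3 than in 4 on chow (median 84.04%), and 18 of 18 were lower in library 7 than in 8 on HFD (median 74.4%). These genes are thus not independent measurements of the diet, since a library that is low for one is low for most. The gap was wider on HFD than on chow in these libraries, which was not tested.

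The genotype comparisons ask whether the het-labelled livers differ on the same diet. On chow, 26 of the 30 members had a lower mean estimate in het-labelled livers and 0 were called (background 0.191% of tested rows lower, 0.326% higher, 0.516% in all). Both het-labelled libraries lay below both wild-type libraries for 21 members and above them for 1, Nus1, where 21.9% and 24% of all tested rows did so. The 18 enzymes vary together between libraries, as described, so these are not 21 separate observations. The median log2 difference of the members was -0.28, beside 0.01 over all rows. The Insig2 difference was -0.54 ± 0.17 (95% interval -0.92 to -0.15, edgeR adjusted p = 0.193) and that of Hmgcs1 -0.62 ± 0.19 (interval -1.05 to -0.18, adjusted p = 0.186). At an unadjusted p under 0.05 edgeR held 5 members, all lower (7.24% of rows were lower at that level), namely Insig2, Acat2, Hmgcs1, Pmvk and Lss. DESeq2 called Insig2 and Hmgcs1 (adjusted p = 0.0494 and 0.0293). It called 227 of all tested rows here, beside 65 by edgeR. Kupffer markers were higher in the same libraries, 301 to 375 against 121 to 131 CPM in sum with 3 of 6 called, and Alas2 of the blood list was lower. Their part was not tested.

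On HFD 21 of 30 estimates were below 0, with a median of -0.14 beside 0.00 over all rows, and 0 were called (background 0.349% lower, 0.0953% higher, 0.445% in all). The median was 0.08 without library 5, -0.33 without 6, 0.03 without 7 and -0.36 without 8, so its sign rested on single libraries. Both het-labelled libraries were below both wild-type ones for 6 members (24.3% of rows) and above them for 2, Mvk and Ggps1 (22.8%). Insig2 and Hmgcs1 had the largest differences among members with no overlap, -0.82 ± 0.17 and -0.90 ± 0.19 (edgeR adjusted p = 0.0796 and 0.0912). Het-labelled livers held 56.7% of the wild-type level of Insig2 and 53.8% of that of Hmgcs1 on HFD, and 68.9% and 65.2% on chow. Along with Acat2 these were the 3 members with an unadjusted edgeR p under 0.05, all lower (7.93% of rows were lower at that level). DESeq2 called both Insig2 and Hmgcs1 lower (adjusted p = 0.000222 and 0.000222), as did edgeR with no filter on low counts (adjusted p = 0.0117 and 0.0141), and Insig2 was called without library 7 (adjusted p = 0.0296). Of all tested rows DESeq2 called 241 in this comparison, beside 56 by edgeR. Of the blood markers Hbb-b1 and Alas2 were lower in het-labelled livers on HFD (2 of 3 tested), and the part of blood was not tested. The 2 genotype comparisons share no library, but each shares libraries with the diet comparisons.

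**Figure D4:**
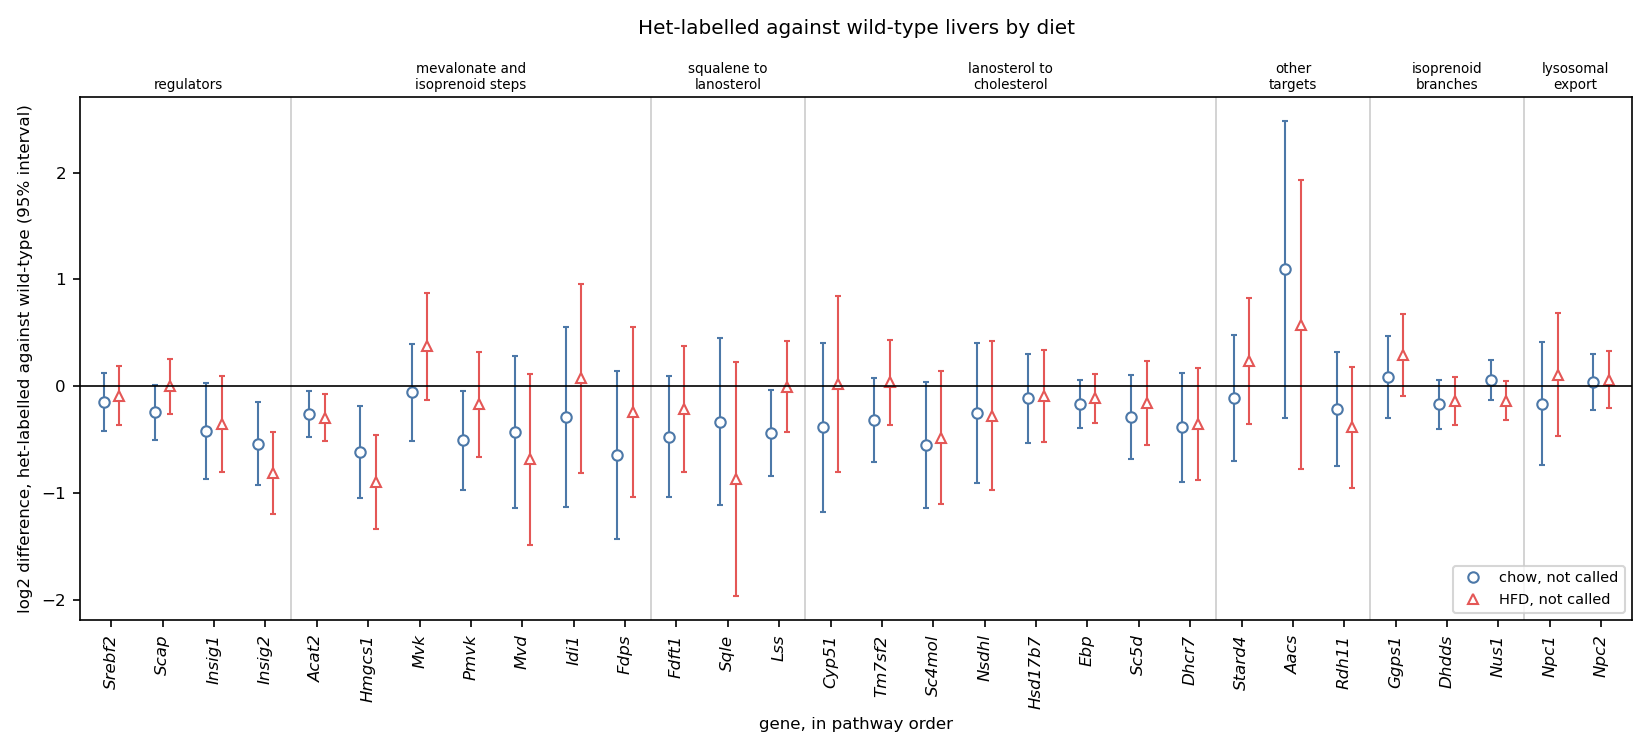
Log2 difference of het-labelled from wild-type livers with its 95% interval on chow (circles) and on HFD (triangles), by pathway step. Most points lie below 0 on chow, and no point is filled because none was called by edgeR.

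Whether the diet response differs between genotypes was tested as the interaction. Of the 30 members 0 were called, 0 had an unadjusted edgeR p under 0.05 (7.15% of rows) and 0 were called by DESeq2, and over all 12593 rows edgeR called 0 as well (background 0%). The estimates ranged from -0.54 for Sqle to 0.43 for Mvk on the log2 scale. Intervals were wide for the strongest responders, -1.89 to 0.81 for Sqle and -0.86 to 1.59 for Idi1, and they do not show that the responses were alike. For Srebf2 the interval was -0.33 to 0.45. The 16 and 12 members called lower in the 2 genotypes therefore do not show a response that differs between them.

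Genes next to the sterol route were read from 4 further lists, against a background of 5.56% of tested rows called higher and 4.84% lower over both genotypes. Of 14 genes that cleave, degrade or assist SREBP (such as Mbtps1, Mbtps2 and the NF-Y subunits) 1 rose and 1 fell over both genotypes, shares near the background, with a median of 0.10. Syvn1, a ubiquitin ligase of the endoplasmic reticulum, rose (0.53 ± 0.10, edgeR adjusted p = 0.0151), and Marchf6, a ligase known to degrade squalene epoxidase, fell (-0.31 ± 0.07, adjusted p = 0.0281). The call of Syvn1 ended without library 1, 2 or 5 and that of Marchf6 without 1, 2, 6 or 8 (edgeR adjusted p up to 0.06501 and 0.1100). Of 14 tested genes that use isoprenoids for prenylation, ubiquinone or dolichol 0 were called, with a median of 0.04. Of 15 genes of sterol esters, transfer and lysosomal lipase 1 fell, Tmem97, an SREBP target that binds NPC1, at 74.3 and 76.8 CPM on chow against 63.5 and 45.2 on HFD in wild-type livers, and at 46.7 and 57.7 CPM on chow against 37.3 and 35.5 on HFD in het-labelled livers. Its change was -0.50 ± 0.11 (adjusted p = 0.0267), and the het-labelled HFD libraries were the lowest. The call ended without library 1, 2, 4, 6, 7 or 8 (edgeR adjusted p up to 0.0884). The 9 genes of redox partners and accessory proteins held 2 that rose and 3 that fell. Pgrmc2 rose (0.69 ± 0.07, edgeR adjusted p = 0.000889), as did Sec14l2, a protein that stimulates squalene epoxidase (0.35 ± 0.06, adjusted p = 0.00714), a call that ended without library 1 (0.0534). Those that fell, named after their values were seen, were Erg28, Lbr and Pgrmc1. Erg28, a scaffold of sterol demethylation listed as 0610007P14Rik, stood at 64.9 and 68.4 CPM on chow against 44.3 and 33.7 on HFD in wild-type livers, and at 48.6 and 64.8 CPM on chow against 33.8 and 41.2 on HFD in het-labelled livers. Its diets did not overlap (-0.69 ± 0.12, edgeR adjusted p = 0.00968). Lbr, a sterol reductase of the nuclear envelope that acts at the step of Tm7sf2, changed by -0.54 ± 0.11 and Pgrmc1, a haem-binding partner of CYP51, by -0.34 ± 0.06 (adjusted p = 0.0151 and 0.0102). Lbr lost its call without library 2 (0.0678).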

How the data were processed

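The deposited table holds read counts per gene that the authors did not normalize, as its values show. The tools named in the submitters' processing notes are TopHat2, HTSeq, CASAVA and DESeq, with build mm9. Their settings and the treatment of strand and of multiply matching reads are not given in the sources used here. Counts of near-identical copies, overlapping genes and the 374 joined rows are therefore uncertain. Groups and library numbers came from the titles.

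Counts were fitted with edgeR 4.0.16 (R 4.3.3): filterByExpr, which left 12593 rows, TMM factors and a quasi-likelihood model of 4 group means over 8 libraries (4 residual and 4.77 prior degrees of freedom). Contrasts were the diet in each genotype and their mean, the genotype on each diet, and the interaction. Tests were 2-sided. SEs were computed back from the test statistic, and 95% intervals from them, so both are approximate. Both libraries of a group were compared by chi-square, which per degree of freedom was 15.5 to 16.8, above sampling noise. Alternatives were RLE factors, DESeq2 1.42.0, no filter, library sizes without the 10 highest rows, only the 4 libraries compared, and each library left out. The code was tested on simulated data. The text names all members, Mll2, Srebf1 and, from each other list, up to 2 called genes with the smallest adjusted p over both genotypes. Erg28, Lbr, Pgrmc1, Gpam and Acss2 were named after their values were seen. The members, lists and rules were chosen with earlier results of these data known. Promoter windows came from RefSeq (GRCm38.p6). An item of 1 list is not reported here.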

Additional observations from a re-analysis of the deposited data

How the results depend on the processing

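No paired analysis was possible because the groups share no library number. RLE factors, DESeq2, no filter and library sizes without the 10 highest rows left every member's call in the 3 diet comparisons in place. Of the 24 called genes of the other lists, for which these settings were added after seeing the data, 1, Gpam, lost its call over both genotypes under these settings (DESeq2 adjusted p = 0.0802). Members called lower by diet in wild-type livers numbered 16 as reported and 3 to 18 when 1 library was left out, and members called higher 0 to 1, with 2 from only the 4 libraries compared and 2 without libraries 3 and 8 together, a setting chosen after seeing the data. In het-labelled livers the lower count of 12 became 4 to 14 when 1 library was left out and 7 from only the 4 libraries compared, 6 of them among the 12, and 16 under DESeq2 and 16 with no filter. The higher count there of 0 became 1 under DESeq2 and 1 with no filter, Insig2 in both, 0 to 1 with 1 library left out, and 2 without libraries 3 and 8. Over both genotypes 20 lower members became 16 to 21, and the 1 higher member 1 to 2, with 2 without libraries 3 and 8. For the genotype on HFD 0 lower members became 2 under DESeq2, 2 with no filter and 0 to 1 with 1 library left out, and on chow 2 under DESeq2. Over all tested rows DESeq2 called 551 for the diet in het-labelled livers, 241 for the genotype on HFD and 227 on chow. The edgeR counts were 380, 56 and 65. No member that was called under any setting changed direction from the reported fit. The causes were not tested. With 2 libraries a group, their spread limits the precision, and the lowest synthesis enzyme level, Sqle in library 7, rested on 43 counts. Where 1 library of a group was left out, the remaining one was assumed to vary like the other groups.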

Other observations

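Fatty acid genes under SREBP1 rose on HFD. Over both genotypes, 10 of 12 genes of SREBP1 and its fatty acid targets rose and 0 fell, with a median log2 change of 1.40, where 5.56% of all tested rows were called higher and 4.84% lower. Of these 10, Gpam was nearest the threshold (edgeR adjusted p = 0.0493). Its call ended without library 1, 2, 4, 5, 7 or 8 and under DESeq2. Srebf1, the paralogue of Srebf2, stood at 114 and 208 CPM on chow against 549.9 and 880.5 on HFD in wild-type livers, and at 215 and 125 CPM on chow against 908 and 562 on HFD in het-labelled livers. HFD was above chow in all libraries (2.13 ± 0.27, edgeR adjusted p = 0.00206), whereas Srebf2 was lower in all of them (-0.64 ± 0.09, adjusted p = 0.002899). Fasn and Pnpla3 were the 2 targets with the smallest adjusted p (2.25 ± 0.21 and 5.32 ± 0.43, adjusted p = 0.000593 and 0.000328). The chow levels of Pnpla3 rested on 5 and 14 counts in wild-type and 11 and 7 in het-labelled livers, so the size of its rise is uncertain. The row of Srebf2 overlaps Mir33, whose reads are not told apart.

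Some genes of acetyl-CoA supply and most of ketone bodies rose. Of 9 genes of acetyl-CoA and NADPH supply 2 were called higher and 0 lower over both genotypes (background 5.56% and 4.84%). In wild-type livers alone 2 were called higher and in het-labelled livers alone 0 (background 2.37% and 1.53% higher). The lowest estimate, -0.84 for Acss2, was not called and is named after its values were seen. Acss2 stood at 220 and 402 CPM on chow against 211 and 131 on HFD in wild-type livers. In het-labelled livers it stood at 171 and 220 CPM on chow against 87.5 and 135 on HFD. Acly, which makes cytosolic acetyl-CoA from citrate, stood at 198 and 259.9 CPM on chow against 453 and 434 on HFD in wild-type livers, and at 206 and 166 CPM on chow against 269.7 and 335 on HFD in het-labelled livers. All HFD libraries were above all chow libraries (0.83 ± 0.11, edgeR adjusted p = 0.00301), and Pdhb, a subunit of pyruvate dehydrogenase, rose too (0.51 ± 0.08, adjusted p = 0.00522). Of 5 genes of ketone bodies 3 were called higher in wild-type livers alone and 0 in het-labelled livers alone (background 2.37% and 1.53% higher). Over both genotypes 4 rose and 0 fell (background 5.56% and 4.84%). They included Bdh1 (0.46 ± 0.06, edgeR adjusted p = 0.00303) and the mitochondrial thiolase Acat1 (0.37 ± 0.06, adjusted p = 0.00546), while the cytosolic thiolase Acat2 was lower (-0.29 ± 0.07, adjusted p = 0.0321). These comparisons share all their libraries with those of the sterol genes.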
